A study of Mus musculus with 2 samples.

Results

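Expression of the NKG2, CD94 and NKR-P1 lectin receptor genes was compared between DX5- and DX5+ natural killer (NK) cells of the mouse liver. The receptors examined were 10 genes of the NK gene complex other than the Ly49 genes: Klrc1, Klrc2, Klrc3, Klrd1, Klrk1, Klre1, Klrb1a, Klrb1b, Klrb1c and Klrb1f. They were taken as a family by name, and every probe set annotated to any of them was used, 17 in all. Of these, 15 probe sets were listed for 1 gene and 2 for a pair of paralogues, and the shared ones are reported apart. Across the array 18193 genes had at least 1 probe set to themselves, 9 of the 10 receptors among them. Klrb1c, which encodes NK1.1, was the exception.

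Both populations were NK1.1+ CD3- cells sorted by flow cytometry from livers of wild-type B6 mice, described as naive. They differed in staining for DX5, an antibody against the integrin alpha 2 chain encoded by Itga2. The study asked how the subsets differ in gene expression. There was 1 array of total RNA for each population, and the sources used here do not give the number, age or sex of the mice. Without replicate arrays a ratio has no error between samples and no test between groups was possible, so all folds describe these arrays. NK1.1 itself was a sort criterion in both populations.

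These receptors are C-type lectin-like membrane proteins. CD94, from Klrd1, pairs with NKG2A (Klrc1), which carries inhibitory motifs, or with NKG2C (Klrc2) and NKG2E (Klrc3), which signal through the adaptor DAP12; all of these dimers bind the non-classical MHC molecule Qa-1. NKG2D (Klrk1) is an activating homodimer that binds stress-induced ligands and signals through DAP10 and DAP12. NKR-P1 receptors such as NKR-P1B and NKR-P1F bind Clr proteins of the Clec2 family, with NKR-P1B as the inhibitory form.

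Some of these paralogues are close copies in the sequence before their start, and others are not. To show this within the NKR-P1 family, the 250 bases upstream of the start of Klrb1a and Klrb1c are shown with those of Klrb1b, which encodes the inhibitory receptor. They are RefSeq sequences of build GRCm38.p6 on the minus strand, from chr6:128622935-128623184, chr6:128788642-128788891 and chr6:128826316-128826565, in that order, printed 5′ to 3′. Capitals mark the letters TGTGGT or ACCACA, the core that RUNX transcription factors bind, read on either strand.
Klrb1a: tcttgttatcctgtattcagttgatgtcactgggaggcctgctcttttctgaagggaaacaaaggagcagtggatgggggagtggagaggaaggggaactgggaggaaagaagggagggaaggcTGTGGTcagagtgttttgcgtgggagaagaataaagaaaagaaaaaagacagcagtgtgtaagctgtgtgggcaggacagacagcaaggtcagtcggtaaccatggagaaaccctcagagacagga
Klrb1c: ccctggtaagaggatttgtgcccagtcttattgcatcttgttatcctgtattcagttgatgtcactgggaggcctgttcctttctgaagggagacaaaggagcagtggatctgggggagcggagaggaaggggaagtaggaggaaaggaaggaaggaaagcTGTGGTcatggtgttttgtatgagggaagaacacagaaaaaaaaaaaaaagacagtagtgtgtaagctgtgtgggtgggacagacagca
Klrb1b: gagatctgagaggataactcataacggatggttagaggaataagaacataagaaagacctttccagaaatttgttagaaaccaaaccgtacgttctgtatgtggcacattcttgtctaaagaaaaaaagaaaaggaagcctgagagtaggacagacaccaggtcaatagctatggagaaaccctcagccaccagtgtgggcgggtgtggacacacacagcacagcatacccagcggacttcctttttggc
In a global alignment with free ends the Klrb1a and Klrb1c windows shared 188 of 210 aligned bases, 89.5%, with a longest common run of 41 bases. The windows of Klrc3 and Klrc2 were closer still, with 206 of 209 aligned bases identical and a common run of 100 bases. In that alignment no other pair of receptor windows was matched over more than 8 bases. Common runs could be longer than the aligned part, with 16 bases for Klrb1a and Klrb1b and 13 for Klrb1a and Klrb1f. A short aligned part thus does not mean that 2 windows share no sequence. The RUNX letters stood in 7 of 9 receptor windows, against 14.2% of 27025 windows of this length. The 7 were those of Klrb1a, Klrb1c, Klre1, Klrk1, Klrc3, Klrc2 and Klrc1. Among them Klrb1a and Klrb1c are close copies, as are Klrc3 and Klrc2, so the 7 are not separate observations. The T-box letters GGTGTGA or TCACACC stood in 0 of 9 receptor windows and in 3.31% of all. These matches describe letters in the windows and say nothing of binding. The windows of Klrb1b and Klrb1f lacked the RUNX letters, and Klrd1 had no entry. Apart from the 3 printed ones, the receptor windows lie at least partly within the annotated span of their own gene.

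The intensities are MAS5 signals, a linear brightness per probe set in arbitrary units, used as deposited. Signals were held against a detection limit, the 95th percentile of 149 probe sets on the same array that stand for genes of taste, smell, the lens, photoreceptors and hair, such as crystallins and olfactory receptors. This limit was 76.1 for DX5- cells and 82.6 for DX5+ cells. Of the 15 probe sets of 1 gene, 13 were above both limits and 2, for Klrc2 and Klrc3, were above the limit on the DX5- array only. Between probe sets of the same gene the log2 ratio had an SD of 0.34 over 4388 genes, and of 0.23 in the brightest quintile of them. That spread covers differences between probes and leaves out differences between cell preparations and mice.

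**Figure D1:**
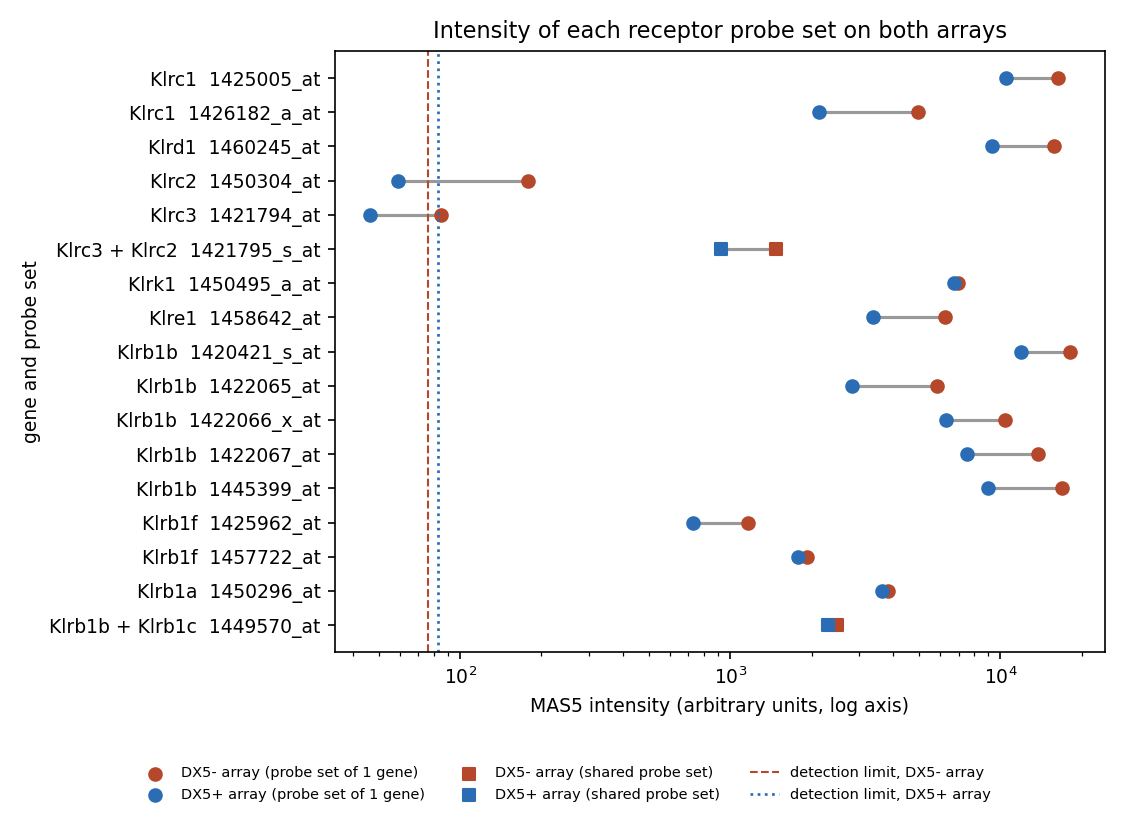
MAS5 intensity (log axis) of each of the 17 receptor probe sets on the DX5- array (red) and the DX5+ array (blue), with circles for probe sets of 1 gene, squares for shared ones and vertical lines at the detection limits. The red point lies to the right of the blue one in every row, and the points nearly coincide for Klrk1 and Klrb1a.

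Klrc1, Klrd1, Klre1 and Klrb1b read 1.5- to 2.3-fold higher in DX5- cells, while Klrk1 and Klrb1a read nearly alike and Klrb1f depended on the probe set. All 13 probe sets above both limits had a higher intensity on the DX5- array, whereas 48.7% of all probe sets of 1 gene above both limits did. The receptor median was a log2 ratio (DX5- minus DX5+) of 0.73, beside -0.01 over all of those probe sets. At least 1.5-fold higher were 10 of the 13, against 10.8% of all; this threshold was chosen after the values had been seen. At the planned threshold of 2-fold 2 of the 13 were higher, against 3.47% of all, and 0 were lower, against 4.89%. Several probe sets measure the same transcript, so the 13 are not separate observations. With 1 probe set per gene, the brightest, 4 of the 7 genes above both limits were at least 1.5-fold higher (10.7% of all such genes) and 0 at least 2-fold higher (3.69%).

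**Figure D2:**
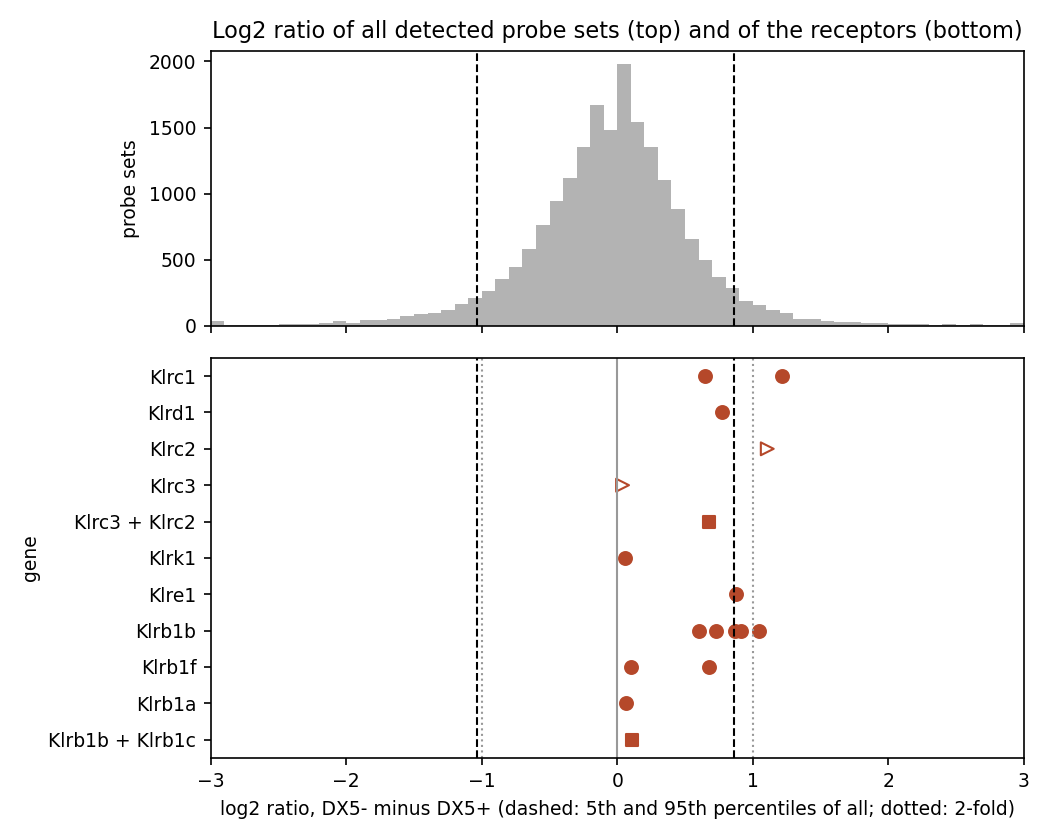
Top, number of probe sets of 1 gene above a detection limit by log2 ratio (DX5- minus DX5+), with values beyond 3 on either side placed in the outermost bins. Bottom, ratios of the receptor probe sets by gene on the same axis, with circles for probe sets of 1 gene, squares for shared probe sets and open triangles for lower bounds; the dashed lines are the 5th (-1.03) and 95th (0.86) percentiles of the upper panel. The lower bounds of Klrc2 and Klrc3 cannot fall to the left of 0 by construction. All other receptor points lie to the right of 0, and those of Klrk1, Klrb1a and the Klrb1b and Klrb1c pair lie close to it.

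The inhibitory CD94 and NKG2A pair read higher in DX5- cells on every probe set. Klrd1, the CD94 subunit common to these dimers, read 15827.8 in the DX5- and 9281.6 in the DX5+ population. That is 1.71-fold, or a log2 ratio of 0.77, at percentile 93.5 of all detected probe sets. Klrc1, the NKG2A subunit, had a pair of probe sets. The first (1425005_at) read 16396.6 in the DX5- and 10472.7 in the DX5+ population, a 1.57-fold difference. The other (1426182_a_at) read 4959.2 and 2136.3, a 2.32-fold difference and the highest measured ratio of the family. The ratios of these Klrc1 probe sets differed by 0.57 on the log2 scale, with the same direction on both.

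The probe sets listed for 1 activating partner of CD94 alone were above the limit on the DX5- array only. That of Klrc2 (NKG2C) read 178.0 in DX5- cells, while its 59.0 in DX5+ cells was under the limit. Against that limit it was at least 2.15-fold higher, a bound that fell to at least 1.66-fold when the limit was taken from a list that also counted Crybg1, Crybg2 and Crybg3 as crystallins. The probe set of Klrc3 (NKG2E) read 84.9 and 46.4, just above the limit on the DX5- array and below it on the other. Its bound of at least 1.03-fold carries almost no information. A further probe set (1421795_s_at) is listed for Klrc3 and Klrc2 together, and its accession is that of Klrc3 in RefSeq. It read 1478.5 and 925.7, a 1.60-fold higher value in DX5- cells at percentile 91.6. How the signal of the shared probe set divides between these paralogues cannot be read from it.

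NKG2D read nearly alike in both populations. Klrk1, which encodes this activating receptor, read 6986.2 in the DX5- and 6713.5 in the DX5+ population, a ratio of 1.04. Its log2 ratio of 0.06 lay at percentile 57.3 of all detected probe sets, and with quantile normalization it was -0.001, so it has no settled direction. The single Klrk1 probe set allows no comparison between probes. Klre1, a receptor that pairs with the KLRI proteins, read 6214.5 and 3387.6. Its 1.83-fold higher value in DX5- cells stood at percentile 95.1.

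Along the chromosome these genes follow each other with no other protein-coding gene between them, in the RefSeq order Klre1, Klrd1, Klrk1, Klrc3, Klrc2 and Klrc1. Klrk1, with a log2 ratio of 0.06, thus sits between Klrd1 at 0.77 and Klrc3, whose own probe set gives only a bound of 0.04. Among the NKR-P1 genes, Klrb1a, Klrb1c, Klrb1b and Klrb1f follow in that order, with Klrb1 of the same family between Klrb1a and Klrb1c. Whether genes of other families lie between them was not examined.

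**Figure D3:**
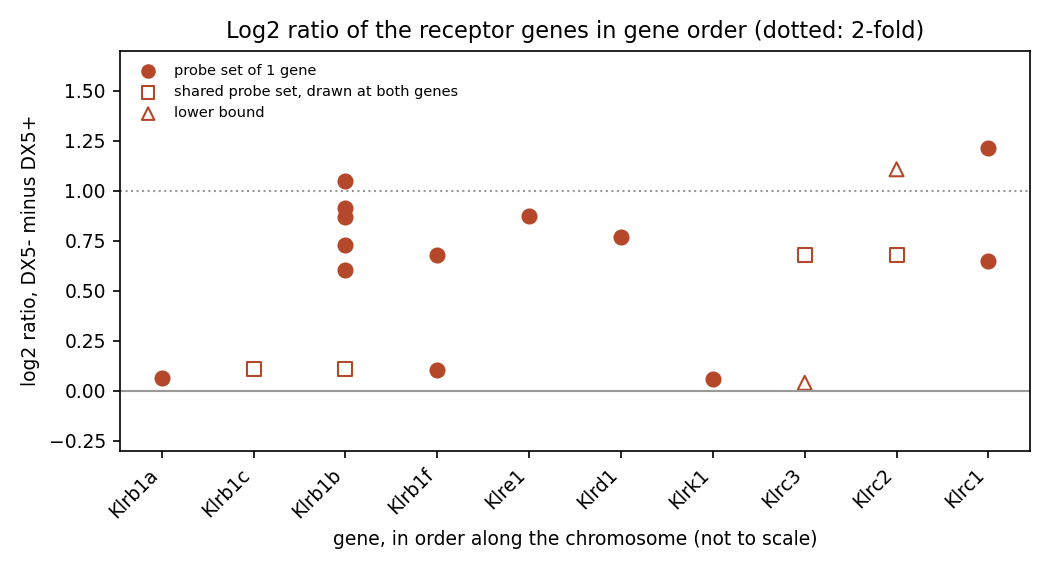
Log2 ratio (DX5- minus DX5+) of each receptor probe set above a limit, with genes in chromosomal order and not to scale; filled circles are probe sets of 1 gene, open squares shared probe sets drawn at both genes, and triangles lower bounds. Klrk1 at 0.06 lies between Klrd1 at 0.77 and Klrc3, which has a bound at 0.04 and a shared probe set at 0.68.

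Within the NKR-P1 family, Klrb1b read higher in DX5- cells on all of its probe sets. Klrb1b (NKR-P1B), the inhibitory receptor for Clr-b, was covered by 5 probe sets listed for it alone. In order, these were 1420421_s_at, 1422065_at, 1422066_x_at, 1422067_at and 1445399_at. They read 18066.3, 5828.3, 10397.0, 13770.7 and 16974.9 in DX5- cells and 11900.6, 2822.1, 6280.2, 7532.7 and 9009.9 in DX5+ cells. The folds ran from 1.52 to 2.07, with a mean log2 ratio of 0.83, and all 5 pointed the same way. The lowest and highest log2 ratio lay 0.44 apart. As the brightest, 1420421_s_at stood for the gene, at 0.60. Without _x_at, _s_at and _a_at probe sets the gene was at 0.91.

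Klrb1a (NKR-P1A) read 3820.2 and 3655.9, a ratio of 1.04 at percentile 57.8. The probe sets of Klrb1f (NKR-P1F), a receptor that binds Clr-g, did not give 1 answer. One (1457722_at) read 1920.4 in the DX5- and 1787.2 in the DX5+ population, a ratio of 1.07. The other (1425962_at) read 1164.5 and 727.0, a ratio of 1.60. Their log2 ratios differed by 0.58, so whether Klrb1f differed by more than 1.5-fold depends on the probe set.

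Klrb1c, which encodes NK1.1, was covered only by a shared probe set, so its signal cannot be read apart from that of Klrb1b. That probe set (1449570_at) is listed for Klrb1b and Klrb1c together, and its accession is that of Klrb1c in RefSeq. It read 2479.9 in the DX5- and 2298.9 in the DX5+ population, a ratio of 1.08 at percentile 62.1. Its log2 ratio of 0.11 lay below the 0.60 to 1.05 of the probe sets listed for Klrb1b alone and near the 0.06 of Klrb1a. Cross-hybridisation between Klrb1a, Klrb1b and Klrb1c, including the probe sets assigned to 1 gene, was not tested.

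The size of these differences depends on how the arrays are scaled, since most lie under 2-fold. All 18 spike-in controls read lower for DX5- cells, by a median of -0.22 as a log2 ratio. Centring the arrays on their medians moved the median log2 ratio of all detected genes by 0.14, and scaling to the 18 spike-in controls moved it by 0.21. The median of the receptor genes above that of all genes was 0.62 as deposited, 0.58 with quantile normalization, 0.56 with intensity-dependent centring and 0.63 with either of the other 2. It was taken over 9 receptor genes, with Klrc2 and Klrc3 included as lower bounds that cannot be negative. As deposited the receptor median was 0.602 over these 9 and also over the 7 above both limits. For the other scalings the 7 were not taken apart. Over these scalings Klrd1 ranged from 0.74 to 0.99, Klrc1 from 0.62 to 0.86, Klre1 from 0.84 to 1.09 and Klrb1b from 0.57 to 0.82. With median centring or spike-in scaling Klre1 also passed 2-fold. Of all detected genes, 400 were past 2-fold upwards and 602 downwards as deposited, against 698 and 393 with spike-in scaling. Klrb1a ranged from 0.03 to 0.28 and Klrk1 from -0.001 to 0.28.

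Of 4 genes listed as adaptors, Tyrobp and Fcer1g read alike in both populations, Hcst read higher in DX5- cells and Cd247 lower. Tyrobp, the DAP12 adaptor of NKG2C, NKG2E and mouse NKG2D, read 22904.6 in the DX5- and 23419.7 in the DX5+ population. Hcst, the DAP10 adaptor of NKG2D, read 7083.3 and 4890.4, 1.45-fold higher in DX5- cells while Klrk1 itself was at 1.04. Fcer1g, the Fc receptor gamma chain used by NKR-P1C, read 22232.5 and 22312.4. Cd247, the zeta chain, is not named here as the adaptor of any of these receptors. Of the listed adaptor genes it was the one past 2-fold, 2.12-fold lower in DX5- cells (1144.3 and 2425.0). Its 2 further probe sets were 1.48- and 1.87-fold lower. Cd247 was no longer past 2-fold with median centring, spike-in scaling or the mean over its probe sets.

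Of 56 adaptor, ligand and signalling genes listed from general knowledge 41 had a probe set of their own and 38 were above a limit. Among the 38, 7 passed 2-fold upwards in DX5- cells and 2 downwards, beside 3.76% and 5.66% of all 10641 detected genes. The list median was 0.008, against -0.02 over all detected genes. Of 17 detected genes of activating signalling, 5 were at least 2-fold higher and 0 lower. Plcg1, a phospholipase C, read 671.8 against 138.8 and was 4.84-fold higher, although a dim second probe set of it read 83.4 and 58.7. Vav3, a guanine nucleotide exchange factor, was 3.84-fold higher. Zap70, the kinase that binds phosphorylated zeta chain and FcR gamma, was 2.58-fold higher on its brightest probe set and 1.26- and 1.60-fold on the others. The adaptor genes Lat and Lcp2 were 2.55-fold and 2.14-fold higher. Syk, the related kinase downstream of DAP12, read 1060.9 in the DX5- and 1847.2 in the DX5+ population, within 2-fold and lower in DX5- cells on all of its 4 probe sets.

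Of 9 detected genes of inhibitory signalling, 1 was past 2-fold, the diacylglycerol kinase gene Dgka, 3.01-fold higher in DX5- cells. Ptpn6, the phosphatase SHP-1 that binds the inhibitory motifs of NKG2A and NKR-P1B, read 1091.4 and 1534.8. Of 4 other lectin receptor genes listed, 2 were above a limit, and they went opposite ways. Cd69, an early activation receptor, was 2.56-fold higher in DX5- cells (20638.1 and 8047.1). Klrg1, which binds cadherins, was 7.27-fold lower (776.4 and 5643.7). Klri1 and Klri2, the partners of KLRE1, could not be read from probe sets of their own.

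**Figure D4:**
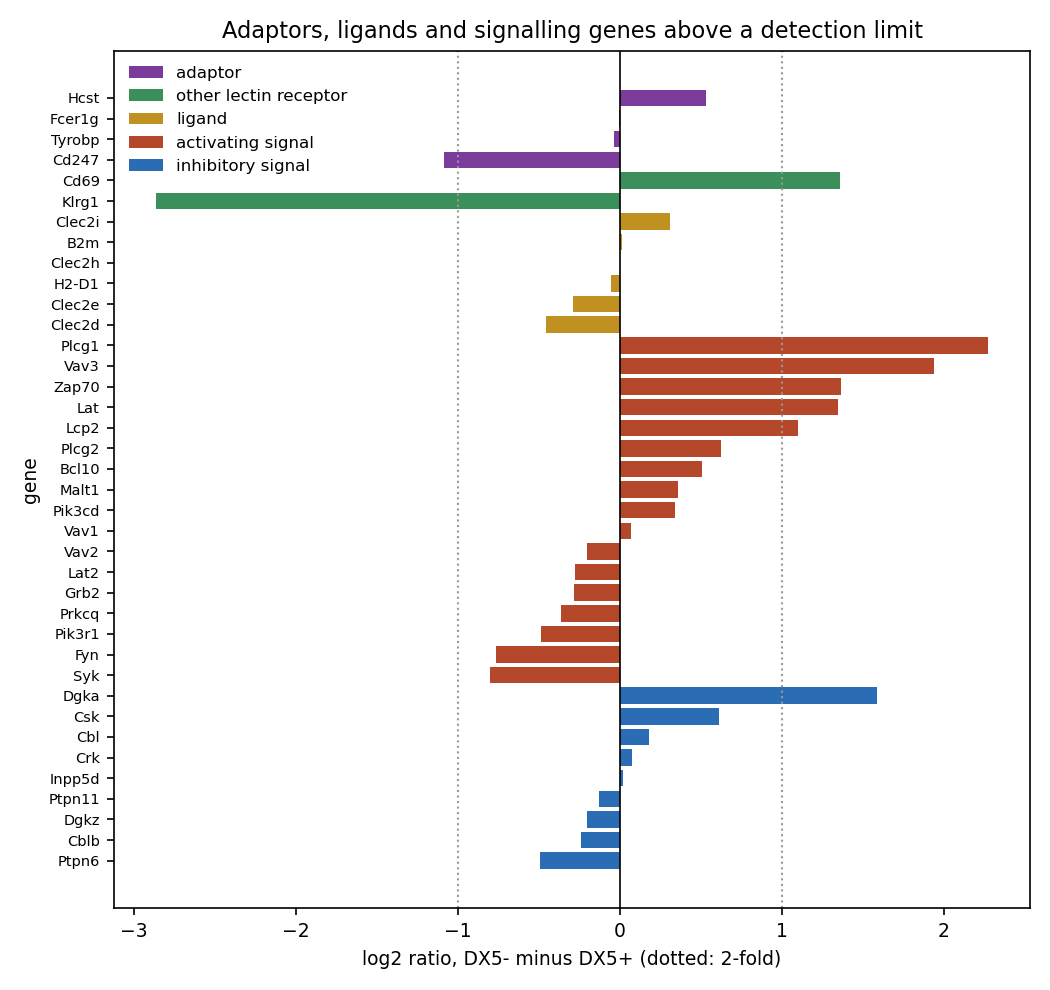
Log2 ratio (DX5- minus DX5+) of the 38 detected adaptor, ligand and signalling genes, coloured by role, with dotted lines at 2-fold. Plcg1, Vav3, Zap70, Lat, Lcp2, Dgka and Cd69 lie beyond the dotted line on the right, and Cd247 and Klrg1 beyond the one on the left.

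Ligand genes were read in the same cells. Clec2d, which encodes the NKR-P1B ligand Clr-b, read 826.7 in the DX5- and 1133.4 in the DX5+ population, and Clec2i, which encodes Clr-g, read 464.7 and 373.8. B2m, the light chain of Qa-1 and other MHC class I molecules, read 33855.6 and 33536.4. H2-T23, the Qa-1 gene, had none to itself. Of the 9 genes for NKG2D ligands, H60c and Ulbp1 had a probe set of their own, and both were below the limits on both arrays.

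The label of the cells was checked against 10 NK cell markers, 2 of which are receptors described here. All 10 were above the limits on both arrays, with 8 within 2-fold and a median log2 ratio of -0.02. Eomes was 8.09-fold and Prf1 2.89-fold lower in DX5- cells. Itga2 read 29.0 in the DX5- population, below the limit, and 105.2 in the DX5+ population, above it. Against the limit it was at least 1.38-fold lower in DX5- cells. With the DX5+ limit of 107 from the list with Crybg1 to Crybg3, or 123 at the 99th percentile, it was below both limits and had no ratio.

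Markers of other cells differed as well. Some T cells also transcribe NKG2 and CD94 genes; the sort took CD3- cells, a gate meant to leave T cells out. Of 15 detected T cell genes 8 were 2-fold or more higher in DX5- cells and 1, Cd247, was lower by that much. By any amount 12 of the 15 read higher and 3 lower. The summed intensity over all 18 listed T cell genes was 35764 against 18354, of which Cd3g alone made up 14035.8 and 1071.8. Of the genes for CD3 itself, Cd3g was 13.1-fold, Cd3e 4.49-fold and Cd3d 3.33-fold higher in DX5- cells. Camk4 was 4.73-fold and Bcl11b 4.66-fold higher, while Cd4, Cd40lg and Themis were below the limits on both arrays. Platelet genes were lower in DX5- cells, 7 of 8 by at least 2-fold (summed 1310 against 5987). Detected macrophage genes were lower too, 4 of 5 by at least 2-fold (summed over all 14 listed, 1304 against 4135). Below both limits were 9 of the 14, Clec4f, C1qa, Timd4 and Cd163 among them. Csf1r, 1 of the 4, was above the limit on the DX5+ array only. Its further probe sets were at least 1.16-fold higher and 1.16-fold lower in DX5- cells. Of 6 detected neutrophil genes, 3 were at least 2-fold lower and 1 higher. Of the B cell, hepatocyte and endothelial genes above both limits, Ttr was past 2-fold, 2.22-fold lower. Pax5 (107.3 and 13.6) and Hp (14.6 and 90.3) were each above the limit on 1 array only. The part of these cells in the receptor ratios was not tested. In bulk RNA, more cells that carry a receptor and more of its RNA per cell cannot be told apart.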

How the data were processed

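Total RNA of each population was biotin-labelled and run on an Affymetrix mouse array, per the labels' protocols. The authors deposited 1 linear intensity per probe set and array, made with MAS5 per the submitters' processing notes; the sources used here do not give its version or scaling target. Depth does not apply; the number of arrays limits the precision.

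Of 45101 probe sets, 34945 had 1 gene symbol in the platform annotation, 932 several and 9160 none, and 64 were controls. Intensities were taken to log2 without offset. A value below its array's detection limit was set to that limit, giving a lower bound ("at least"); genes below both limits had no ratio. A gene was represented by the probe set of highest mean log2 value. An earlier analysis of these files had counted Crybg1, Crybg2 and Crybg3, which are not lens crystallins, towards the limit; they were left out here.

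The receptors, lists and naming rule (every receptor; listed partners past 2-fold and a fixed few; up to 3 genes per marker list) were chosen with earlier results of these data known. Fcer1g, Syk, Ptpn6, B2m, H60c, Ulbp1, Pax5, Hp, the Cd247 entry of the T cell list and the markers named as below both limits fall outside that rule and were named after their values were seen. Steps were tested on simulated data. Python 3.11.15, numpy 2.4.6, pandas 2.3.3, statsmodels 0.14.6 and biopython 1.88 were used.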

Additional observations from a re-analysis of the deposited data

How the results depend on the processing

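No paired analysis was possible because each group had 1 array, and for the same reason no replicate could be left out. Of 294 recomputed values 261 stayed within the SD of 0.34 between probe sets of a gene or, for counts, within 1.5 times. Of 9 receptor genes above a limit, 1 was at least 2-fold higher as deposited (Klrc2, as a bound), beside 3.76% of all detected genes. The receptor count was 2 of 9 with median centring (5.40% of all) and with spike-in scaling (6.56%), so both figures rose. An offset of 32 left 0 of 9 (2.95%). A 99th-percentile limit left 0 of 8 (3.73%), as did the limit from the list with Crybg1 to Crybg3 (3.62%). Counting shared probe sets too also left 0. Over probe sets the count was 3 of 15, beside 705 of all 19594 above a limit. At 1.5-fold it was 5 of 9 genes (10.8% of all). These last 2 and the Crybg list were chosen after seeing the data. The Klrc2 ratio was 1.11 as deposited, 0.53 at the 99th percentile, 0.73 with the Crybg list, 1.59 with no limit and 0.68 with shared probe sets; these settings differ in the floor or the probe set used. Klrk1 has no value without _a_at probe sets. Klrc3 was 0.87 with no limit and 0.68 with shared probe sets. Of all genes, 400 were at least 2-fold higher and 602 lower as deposited, 698 and 393 with spike-in scaling, and 1888 and 2838 with no limit. Partner genes at least 2-fold lower numbered 2 as deposited (Klrg1 and Cd247), 1 (Klrg1) with median centring, spike-in scaling or the mean over probe sets, and 4 with no limit or at 1.5-fold. The T cell median was 1.32 as deposited, 0.84 at the 99th percentile, 0.83 with the mean over probe sets and 0.88 with no limit. The macrophage median was -1.61, and -1.04 at the 99th percentile and with the mean over probe sets, -1.24 with the Crybg list and -1.10 with no limit. The platelet median was -1.98, and -1.63 at the 99th percentile and with the mean over probe sets. The endothelial median was -0.06, and -0.47 without _x_at, _s_at and _a_at probe sets. The cause of these moves was not tested beyond the construction of each setting. With 1 array per group, differences between preparations and mice cannot be told apart from those between the populations.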
